A study of Homo sapiens with 3 samples.

Results

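The genes described here encode the initiation and elongation factors of cytosolic translation, with a few relatives that carry the same symbols. They were chosen by symbol alone, as the genes named EIF1 to EIF6 or EEF1 and EEF2, without the eIF2α kinases, the 4E-binding proteins, EIF1AY, antisense genes and pseudogenes. The rule used no measured value and found 54 of the 29689 gene symbols in the table. Of these, 48 were expressed, meaning that their log2 FPKM averaged above 1 and that no library listed them at the floor of the table. The other 6 were EIF2S3L, EIF3CL, EIF3L, EIF4E3, EIF5A2 and EIF5AL1, which all had values above the floor. FPKM scales fragments to the length of the transcript and the size of the library, so genes can be compared with each other, and each change below is a difference of log2 FPKM.

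The RNAseq data came from tumors of SUM-149, a human TNBC cell line, mixed with Matrigel and grown in mammary fat pads of female Nu/Nu mice, which lack most T cells but keep their own stroma and blood vessels. There was 1 tumor library each for vehicle, CDK2i (dinaciclib for 10 days) and EZH2i (EPZ6438 for 10 days), so no value has a replicate and none was tested. The agents are those of the sample labels, while the study's account of SUM-149 xenograft growth names another EZH2 inhibitor, GSK343. Dinaciclib is known to inhibit CDK1, CDK5 and CDK9 besides CDK2. Whether each library came from 1 animal or from pooled tumors, and whether mouse reads were removed, is not given in the sources used here.

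Translation starts when eIF2 brings the initiator tRNA to the small ribosomal subunit, eIF3 holds the subunit and the eIF4 factors bring in the capped mRNA. After the subunits join, eEF1A delivers each aminoacyl-tRNA and eEF2 moves the ribosome by a codon. Many of the mRNAs of this machinery, and nearly all ribosomal protein mRNAs, begin with a C and a run of pyrimidines, the 5′ terminal oligopyrimidine (TOP) tract, through which mTOR and LARP1 control their translation.

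Some of the genes show such a tract at their listed start. The sequences below are the gene strand from 15 bases before to 15 bases from the start that RefSeq lists, with the pyrimidine run from the start in capitals, for the abundant elongation factors, for an eIF3 subunit of the TOP list and for initiation factors with and without a run.
EEF1A1: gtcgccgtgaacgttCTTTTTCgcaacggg
EEF2: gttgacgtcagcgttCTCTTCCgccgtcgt
EEF1B2: gccggaagtggccccagcctcgaggccggg
EIF3F: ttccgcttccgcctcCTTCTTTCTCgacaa
EIF3D: gcgcgcgcatgtttcCTCTTTTCCTggttt
EIF3K: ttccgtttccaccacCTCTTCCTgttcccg
EIF2S3: ggggtgatttccttcCTCTTTTggcaacat
EIF4A2: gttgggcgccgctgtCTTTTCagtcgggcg
EIF4A1: aggcgggcactccgccctagtttctaagga
The table of RefSeq promoters is of build GRCh38.p14, and each window was placed on GRCh37 by an exact match. EEF1A1 lies at chr6:74230741-74230770 on the minus strand, EEF2 at chr19:3985447-3985476 on the minus strand, EEF1B2 at chr2:207024318-207024347, EIF3F at chr11:8008869-8008898, EIF3D at chr22:36925199-36925228 on the minus strand and EIF3K at chr19:39109813-39109842. EIF2S3 lies at chrX:24073058-24073087, EIF4A2 at chr3:186501351-186501380 and EIF4A1 at chr17:7476128-7476157, and those without a named strand are on the plus strand. EEF1A1, EEF2, EIF3F, EIF3D, EIF3K, EIF2S3 and EIF4A2 begin with a run of 6 to 10 pyrimidines, while EEF1B2, which is on the TOP list, and EIF4A1 have no such run at this listed start. RefSeq's start need not be the start used in these tumors.

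A C at the start followed by at least 4 pyrimidines, read on the gene strand only, was found in 11 of the 44 members with a RefSeq promoter, or 25%. The 11 genes were EEF1A1, EEF2, EIF2A, EIF2D, EIF2S3, EIF3D, EIF3F, EIF3K, EIF3M, EIF4A2 and EIF4B. The same start was found in 4.07% of all 35116 promoters, in 5.11% of 7609 expressed genes that are neither members nor ribosomal protein genes, and in 68.3% of 63 expressed ribosomal protein genes. The TOP list used below is a textbook list of 9 members, EEF1A1, EEF1A2, EEF1B2, EEF1D, EEF1G, EEF2, EIF3E, EIF3F and EIF3H. Of these 8 were in the table, and EEF1G was not analysed here.

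The libraries were of like depth, about 16.8 M, 19.1 M and 17.5 M fragments (M, mega) in the vehicle, CDK2i and EZH2i libraries, as recovered from the steps of the low FPKM values. With the transcript lengths used here, 48.2%, 49.0% and 48.7% of the low values in range lay on such steps. Fragment counts below are thus approximate. The basal-like keratins KRT5, KRT14, KRT17 and KRT6A lay between log2 FPKM 8.77 and 12.61 in all 3 tumors, and ESR1 and PGR, which TNBC lacks by definition, were at 0.14 or below. ERBB2 lay between 4.46 and 4.93. The 6 basal-like markers summed to 6235 FPKM for vehicle, 15142 for CDK2i and 6036 for EZH2i. Markers of T cells, B cells, endothelium and skeletal muscle summed to less than 1 FPKM in each tumor. All markers are human genes on a human reference, while host stroma, vessels and blood cells are of the mouse. Low sums thus do not show that such cells were absent. Whether higher sums came from mouse reads or from tumor cells was not tested. The 5 epithelial markers summed to 1442, 1244 and 763 FPKM and the 6 fibroblast markers to 24.4, 38.3 and 28.8 FPKM. The 4 macrophage markers summed to 8.22, 8.10 and 3.36 FPKM, nearly all from CD14, and the 3 adipocyte markers to 33.2, 19.3 and 3.50 FPKM, nearly all from FABP4. The part of these differences in the values below was not tested. In such bulk samples fewer cells of a type and less RNA per cell cannot be told apart.

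The 54 members together took 1.16% of all FPKM in vehicle, 1.15% with CDK2i and 1.18% with EZH2i, so the share of the whole class was nearly the same in the 3 libraries. Both sums behind this share were highest in vehicle. The members summed to 5553, 4971 and 4767 FPKM in the same order, and all genes to 478777, 431781 and 405028. Within the class the balance differed. EEF1A1 and EEF2 made up 48.1% of the members' FPKM in vehicle, 47.2% with CDK2i and 40.3% with EZH2i, the lowest share being that of the EZH2i tumor. Ribosomal protein genes, the other large part of the machinery, took 15.4%, 8.71% and 8.34%. The plot of levels shows how far apart the members lay, from 1629 FPKM for EEF1A1 and 1041 for EEF2 in vehicle to 0.11 FPKM for EIF2S3L.

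**Figure D1:**
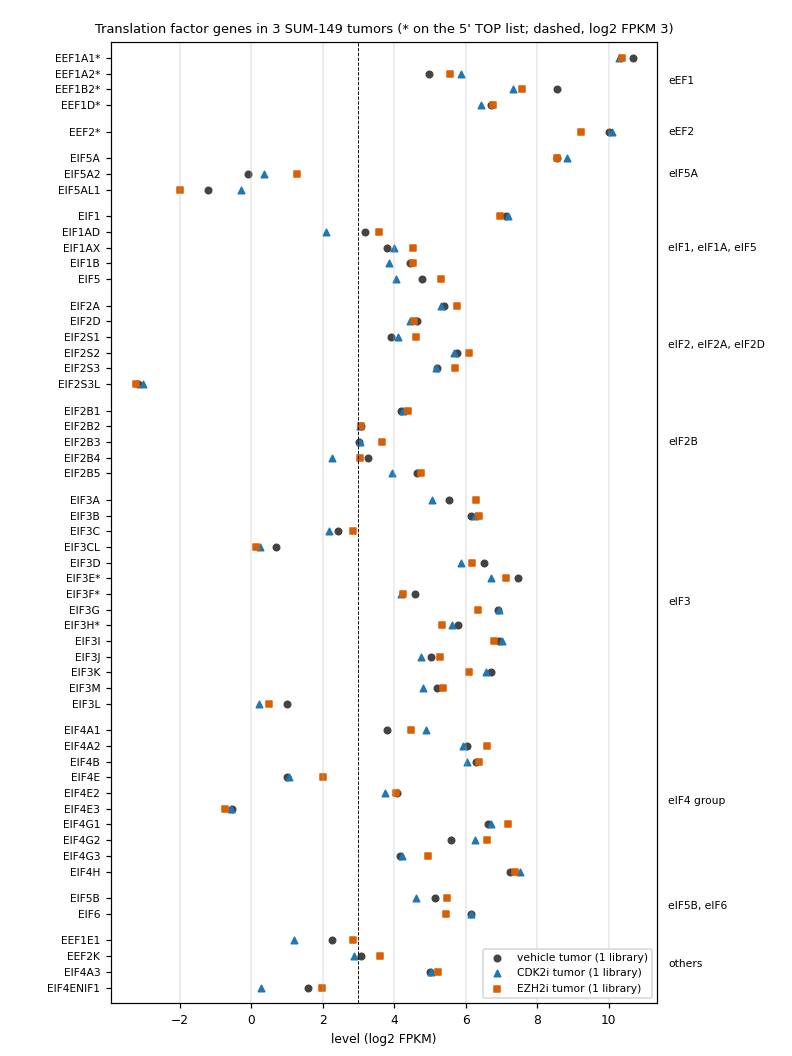
Level of each of the 54 genes, in log2 FPKM on the horizontal axis, with 1 point for each of the vehicle (circle), CDK2i (triangle) and EZH2i (square) tumors. Genes are grouped by role, an asterisk marks the 5′ TOP list and the dashed line is log2 FPKM 3. EEF1A1 and EEF2 lie at the right, above 9 in all 3 tumors, and most genes differ far more from each other than 1 gene does between tumors.

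A gene was counted as past the thresholds when it differed more than 2-fold and the higher of the 2 values was above log2 FPKM 3. Between CDK2i and vehicle, 4 of the 44 members that reached this minimum passed, or 9.09%, against 11.3% of all 6632 genes that reached it. EIF4A1 was higher (3.27% of all genes), and EEF1B2, EIF1AD and EIF2B4 were lower (8.07% of all genes). Between EZH2i and vehicle 1 of 44 members passed, EIF4G2, which was higher, or 2.27%, against 13.4% of all genes in either direction, 8.93% higher and 4.42% lower. Between the EZH2i and CDK2i tumors 3 of 44 members passed as deposited, EIF1AD, EIF5 and EIF3A, all higher in EZH2i, or 6.82%, against 24.1% in either direction, 17.5% higher and 6.53% lower. As deposited, the members' share was thus near that of all genes in CDK2i, and below it in EZH2i and between the treated tumors. Both treated tumors were compared with the same vehicle library.

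Which members passed depended in part on the scaling. EEF1B2 in CDK2i, and EIF1AD between EZH2i and CDK2i, passed under each of the 3 other scalings, both pseudocounts and the removal of the trend over GC content and length. EIF4A1 in CDK2i passed under these settings except when ribosomal protein and mitochondrial genes were left out of the sums made equal. EIF4G2 in EZH2i did not pass with the libraries centred or with the trend removed. With the libraries centred, EEF1B2 (−1.19) and EEF2 (−1.02) passed as lower in EZH2i in its place, and EEF1A2 (1.08) joined EIF4A1 as higher in CDK2i. EIF1AD and EIF2B4 then no longer passed as lower in CDK2i (−0.92 and −0.86), nor did they with the sums made equal, with a pseudocount of 1 FPKM or with the trend removed. The split of members past the thresholds in CDK2i was thus 1 higher and 3 lower as deposited, 2 and 1 both centred and with equal sums, and 0 and 3 when the equal sums left out ribosomal protein and mitochondrial genes. Between EZH2i and CDK2i it turned from 3 higher and 0 lower as deposited to 1 and 2 centred, where EIF1AD (1.09) stayed higher, EEF2 (−1.26) and EIF6 (−1.08) passed as lower, and EIF5 (0.86) and EIF3A (0.85) did not pass. With the sums made equal, EIF4G3 (1.03) joined EIF4G2 in EZH2i.

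Changes of any size followed the shift of all genes. Of the 48 expressed members, 29 were lower in CDK2i than in vehicle (60.4%, against 58% of all 11109 expressed genes) and 19 higher (against 41.9%). In EZH2i 33 were higher (68.8%, against 61.5%) and 15 lower (against 38.5%). The members' median difference was −0.13 with CDK2i and 0.21 with EZH2i, next to −0.11 and 0.19 over all expressed genes. Between EZH2i and CDK2i, 37 members were higher (77.1%, against 66.9%), and 11 lower (against 33%), with a median of 0.38 next to 0.35. The sign of these medians depended on the scaling between libraries. Their distance from the median of all expressed genes was −0.02, 0.01 and 0.03. No scaling can move this distance, since each shifts every gene of a library alike. With the GC and length trend removed it was 0.02, −0.03 and −0.12. With libraries centred on the median gene the members' medians were 0.0345, −0.0105 and −0.0045. As a measure of how far single genes scatter, the SD of the EZH2i minus CDK2i difference over the 200 genes nearest in expression lay between 0.59 and 1.16 for the expressed members, and this spread includes effects of the drugs.

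**Figure D2:**
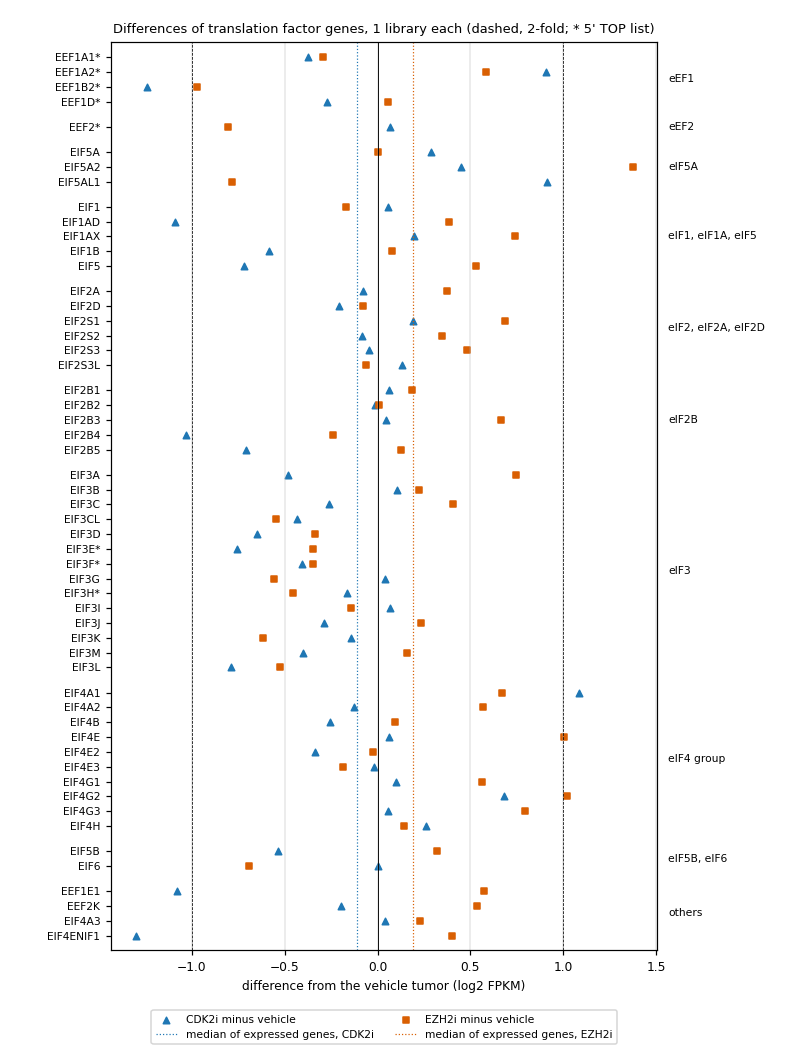
Difference of each of the 54 genes from the vehicle tumor, in log2 FPKM on the horizontal axis, for CDK2i (triangle) and EZH2i (square), 1 library each. Dashed lines mark 2-fold, dotted lines the median of all expressed genes (−0.11 in CDK2i and 0.19 in EZH2i). Most points lie within 2-fold. EEF1B2 is low in both treated tumors, and the eIF4 group lies mostly to the right in EZH2i.

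EEF1A1 and EEF2, both on the TOP list, were the most abundant members. EEF1A1, which brings aminoacyl-tRNA to the ribosome, stood at log2 FPKM 10.67 in vehicle, 10.29 with CDK2i and 10.37 with EZH2i. EEF2, the translocase, stood at 10.02, 10.09 and 9.22 in the same order. EEF1A1 was thus slightly lower in both treated tumors, with differences of −0.38 and −0.30. EEF2 was level in CDK2i (0.07) and lower in EZH2i (−0.80, 1.75-fold), where it lay at percentile 6.97 of the changes of expressed genes. EEF2 lay 0.87 below its CDK2i level in EZH2i, against a spread of 0.70.

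EEF1B2, a guanine nucleotide exchange factor that recharges eEF1A, had the largest difference of the elongation factors. Its level was 8.56 in vehicle, 7.31 with CDK2i and 7.58 with EZH2i, or about 5105, 2459 and 2715 fragments. The gene (chromosome 2 of GRCh37, 207024309 to 207027652) was 2.37-fold lower in CDK2i and 1.96-fold lower in EZH2i, just short of the threshold, and the treated tumors differed from each other by 0.27. EEF1D, which encodes another exchange subunit, was at 6.71, 6.44 and 6.77, with no such drop. Opposite-strand genes, TIGD5 among them, cover 34.0% of the exon length of EEF1D, and whether the counting used strand is not given in the sources used here. The vehicle level of EEF1B2 stands above both treated tumors, and both of these differences share the vehicle library.

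EEF1A2, the eEF1A paralog of muscle and neurons, which is also found in breast tumors, went the other way. Its levels were 4.97, 5.88 and 5.56, so it was lowest in vehicle. The differences of 0.91 in CDK2i and 0.58 in EZH2i stayed below 2-fold as deposited, but with the trend over GC content and length removed EEF1A2 was 1.25 higher in EZH2i, past the thresholds. EEF1A1 exceeded EEF1A2 51.8-fold in vehicle, 21.3-fold in CDK2i and 28.2-fold in EZH2i. The gene for EEF1A1 spans 74199031 to 74235310 of chromosome 6, that for EEF1A2 62119366 to 62130592 of chromosome 20 and that for EEF2 3976054 to 3985461 of chromosome 19. The ratio of EEF1A1 to EEF1A2 within a library does not depend on scaling between libraries, and it was highest in vehicle. On the log2 scale it differed from vehicle by −1.28 in CDK2i and −0.88 in EZH2i, and in EZH2i by −1.87 with the trend removed.

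Sequence shared with pseudogenes bears on EEF1A1 and EEF1B2. The table lists 18 EEF1A1 pseudogenes, whose summed FPKM was 6.58%, 6.18% and 6.16% of EEF1A1, mostly from EEF1A1P5 and EEF1A1P6, and 2 EEF1B2 pseudogenes at 1.21%, 1.11% and 1.10% of EEF1B2. With the pseudogenes added to the gene, EEF1A1 differed by −0.38 in CDK2i and −0.30 in EZH2i, and EEF1B2 by −1.24 and −0.97. These are the values without them to 2 decimals.

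EIF5A, which carries the modified lysine hypusine and helps the ribosome through proline-rich stretches, was at 8.55, 8.83 and 8.55. It was among the most abundant members and differed little between the tumors. EIF5A2, its weakly expressed paralog, stood at −0.09 in vehicle, 0.36 with CDK2i and 1.28 with EZH2i, about 87, 136 and 235 fragments. The gene lies on chromosome 3 from 170606207 to 170626433. EIF5A exceeded EIF5A2 399-fold, 356-fold and 154-fold, so the ratio was lowest in EZH2i. With the GC and length trend removed, however, the ratio in EZH2i differed from vehicle by −0.21 in place of −1.37. The transcript of EIF5A2 is 5534 nt long with 33.9% GC, and that of EIF5A 1264 nt with 56.6% GC. EIF5AL1, a near copy of EIF5A with about 29, 61 and 17 fragments, is uncertain, since reads could be split between both.

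By its median the TOP list lay below the other members. Over its 8 genes the median difference was −0.32 with CDK2i and −0.35 with EZH2i, 6 of 8 being lower in each, and the 40 other expressed members −0.08 and 0.28. Ribosomal protein genes, which are nearly all TOP mRNAs, lay further down, with medians of −0.90 and −1.04 over 78 genes. Of the 75 ribosomal protein genes that reached the expression minimum, 29 passed as lower with CDK2i and 45 with EZH2i, next to 1 and 0 of the 8 TOP factors and to 8.07% and 4.42% of all genes. The TOP median minus that of the other members was −0.25 with CDK2i, −0.62 with EZH2i and, between the treated tumors, −0.41. The median of the TOP factors was below 0 in both treated tumors under each scaling tried, while that of the other members in CDK2i was above 0 with the libraries centred on their median gene (0.09) or with the summed FPKM made equal (0.07). Between EZH2i and CDK2i the TOP median was 0.07 as deposited and −0.32 with the libraries centred.

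**Figure D3:**
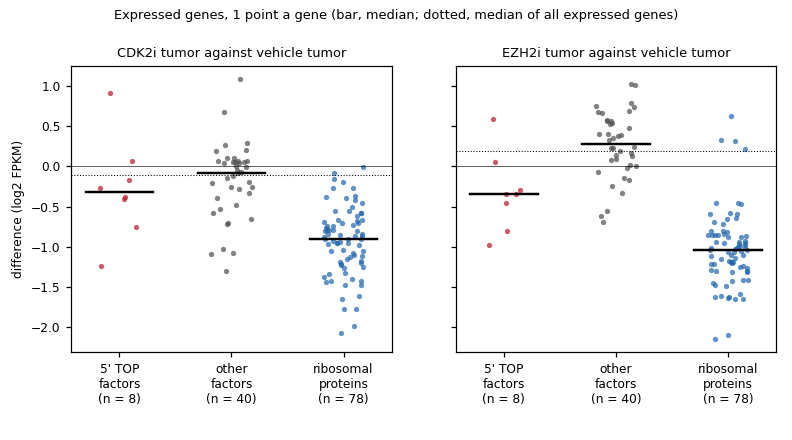
Difference from the vehicle tumor, in log2 FPKM on the vertical axis, for the 8 TOP factors, the 40 other expressed factors and 78 ribosomal protein genes, in CDK2i at left and EZH2i at right, 1 point a gene. Bars are medians and dotted lines the median of all expressed genes. The TOP factors (−0.32 and −0.35) lie between the other factors (−0.08 and 0.28) and the ribosomal protein genes (−0.90 and −1.04), and EEF1A2 is the highest TOP point in both panels.

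Members grouped by the RefSeq start in place of the list gave a like order with a smaller gap in EZH2i. The 11 expressed members with the pyrimidine start had medians of −0.21 (CDK2i) and −0.08 (EZH2i), and the 30 with another start 0.02 and 0.28. Of the 8 TOP-list genes 4 had no RefSeq promoter in the table and entered neither group, EEF1A2, EEF1D, EIF3E and EIF3H. Among ribosomal protein genes both kinds of start were low, with medians of −0.98 and −1.13 with the motif and −0.83 and −0.97 without it. Among the other expressed genes the medians were −0.12 and 0.11 with the motif and −0.09 and 0.23 without it. Of 7 further TOP mRNAs that are no members, only TPT1 passed as lower in both treated tumors as deposited (−1.07 and −1.04). As lower passed 8.07% of all genes in CDK2i and 4.42% in EZH2i. The median of the 7 was −0.12 in CDK2i and 0.20 in EZH2i. PABPC1 (0.03 and −0.04) and NPM1 (−0.12 and 0.20), both in this set, differed little, while GNB2L1, also in it, stood at −0.60 and −0.82. These 3 were named after their values were seen.

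eIF3 is the largest initiation factor and holds the small subunit open for the mRNA. Its 12 expressed subunits had a median difference of −0.27 with CDK2i, next to −0.11 for all expressed genes, and of −0.24 with EZH2i, next to 0.19. With CDK2i 9 of 12 were lower, as were 58% of all expressed genes, and with EZH2i 7 of 12, against 38.5%. The CDK2i median was below 0 under each scaling, and the EZH2i median under each except with the summed FPKM made equal, where it was 0.0003. None of the 11 that reached the expression minimum passed the thresholds against vehicle, next to 11.3% of all genes in CDK2i and 13.4% in EZH2i. Their levels were far from equal, with EIF3E at 177 FPKM in vehicle and EIF3C at 5.42, a 32.7-fold difference. EIF3C shares nearly all of its sequence with EIF3CL, listed at 1.62 FPKM, so the level of each is uncertain. EIF3L stood at 1.01, 0.22 and 0.49, and 41.1% of its exon length is shared with another gene on the same strand.

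In a grouping made after the values were seen, the 7 expressed subunits with PCI or MPN domains (EIF3A, EIF3C, EIF3E, EIF3F, EIF3H, EIF3K and EIF3M) were all lower in CDK2i than in vehicle as deposited, next to 58% of all expressed genes, with a median of −0.40 and a range of −0.76 to −0.14. With the libraries centred 5 of the 7 were lower, and with equal sums or the GC and length trend removed 6 of 7. Of the other 5, EIF3D (−0.65) and EIF3J (−0.29) were lower too, and EIF3B, EIF3G and EIF3I were higher. In EZH2i, as deposited, 4 of the 7 were lower. Over the 12 subunits the CDK2i difference ran with GC content (Spearman 0.70), and the subunits share their libraries.

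EIF3E, the TOP-list subunit that binds eIF4G and is a known integration site of mouse mammary tumor virus, was at 7.47 in vehicle, 6.71 with CDK2i and 7.12 with EZH2i. EIF3F, a subunit that also acts as a deubiquitinase, was at 4.59, 4.18 and 4.24. EIF3H, another TOP-list subunit, was at 5.79, 5.62 and 5.34. All 3 were highest in the vehicle tumor, and none differed 2-fold. EIF3A, the large scaffold subunit (chromosome 10, 120793182 to 120840329), stood apart, at 5.53 in vehicle, 5.05 with CDK2i and 6.28 with EZH2i. It was 2.35-fold higher in EZH2i than in CDK2i, with a spread of 0.66, and the vehicle tumor lay between. With the GC and length trend removed this difference was 0.76, and centred it was 0.85, both below 2-fold.

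At the lower end of eIF3 in EZH2i were EIF3K (6.72, 6.58 and 6.10) and EIF3G (6.90, 6.94 and 6.35), both level between vehicle and CDK2i. EIF6, which keeps the large subunit from joining too early, followed the same pattern (6.14, 6.14 and 5.45). Their transcripts are short, 772, 1103 and 1069 nt. With the GC and length trend removed the EZH2i differences of −0.62, −0.56 and −0.69 became −0.06, 0.14 and −0.08.

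The factors that bind the cap and unwind the mRNA were mostly higher in EZH2i. Of the 9 expressed genes of the eIF4 group 8 were higher there, as were 61.5% of all expressed genes, with a median of 0.57 next to 0.19. In CDK2i 6 of 9 were higher, against 41.9%, with a median of 0.06 next to −0.11. The EZH2i median was above 0 under each scaling, while in CDK2i it was −0.08 when ribosomal protein and mitochondrial genes were left out of sums made equal. EIF4A1, the RNA helicase of the cap-binding complex, stood at 3.80 in vehicle, 4.89 with CDK2i and 4.47 with EZH2i, about 412, 995 and 683 fragments. It was 2.12-fold higher in CDK2i, as deposited the only member past the thresholds in that direction, and lay at percentile 97.5 of the changes of expressed genes.

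EIF4A2, its paralog, was at 6.04, 5.91 and 6.61, so it was highest in EZH2i and did not follow EIF4A1. EIF4A2 exceeded EIF4A1 4.71-fold in vehicle, 2.04-fold in CDK2i and 4.40-fold in EZH2i. The level of EIF4A1 is uncertain, since 47.4% of its exon length is shared with other genes of the same strand, the read-through gene SENP3-EIF4A1 among them, which the table lists at −2.42, −3.75 and −3.14. The locus spans 7476142 to 7482324 of chromosome 17.

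EIF4G2 (chromosome 11, 10818597 to 10830487), a relative of the scaffold eIF4G without the part that binds the cap-binding protein, was the only member past the thresholds between EZH2i and vehicle as deposited. It stood at 5.58 in vehicle, 6.26 with CDK2i and 6.60 with EZH2i, about 3055, 5578 and 6467 fragments, so it was higher in both treated tumors and 2.03-fold higher in EZH2i. EIF4G1, the main scaffold, was at 6.62, 6.72 and 7.18, and its paralog EIF4G3 at 4.16, 4.22 and 4.95. Both were level between vehicle and CDK2i and highest in EZH2i, and their ratio stayed within 4.69 to 5.65 in the 3 tumors. With the GC and length trend removed EIF4G2 differed by 0.69 in EZH2i, below 2-fold.

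EIF4E, which binds the cap itself, had the lowest level of the expressed eIF4 group, at log2 FPKM 0.997 in vehicle, 1.057 with CDK2i and 2.002 with EZH2i, or about 81, 97 and 170 fragments. It was 2.01-fold higher in EZH2i but did not reach the expression minimum. With the GC and length trend removed EIF4E differed by 0.65 in EZH2i, below 2-fold. EIF4H, a small cofactor of the helicase, was the most abundant at 152 FPKM in vehicle, 76.1-fold above EIF4E. EIF4E3, an atypical relative with about 116, 130 and 106 fragments, did not move with EIF4E, so that EIF4E exceeded it 2.89-fold in vehicle, 3.05-fold in CDK2i and 6.60-fold in EZH2i.

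**Figure D4:**
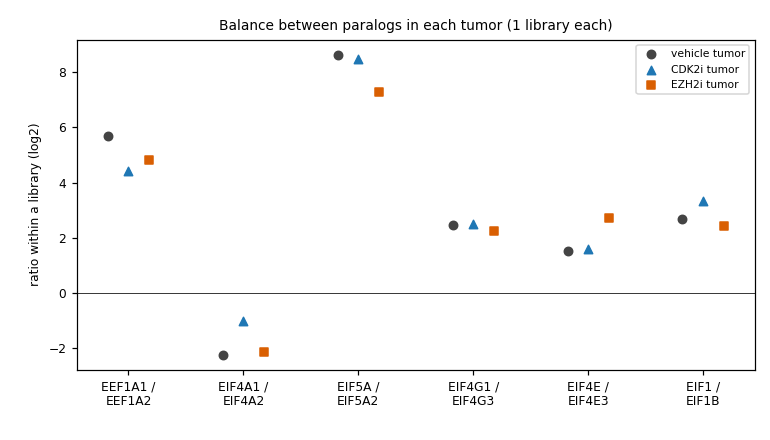
Ratio of 2 paralogs within a library, on a log2 axis, for 6 pairs in the vehicle (circle), CDK2i (triangle) and EZH2i (square) tumors, 1 library each. EEF1A1 is nearest to EEF1A2 in CDK2i (4.41), EIF4A1 nearest to EIF4A2 in CDK2i (−1.03), and EIF5A nearest to EIF5A2 in EZH2i (7.27), while EIF4G1 and EIF4G3 keep nearly the same ratio.

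The list of factors that choose the start codon, with their relative EIF1AD, had a median over 5 genes of −0.58 in CDK2i, next to −0.11 for all expressed genes, and 0.39 in EZH2i, next to 0.19. Without EIF1AD the medians over the other 4 genes were −0.26, with 2 of 4 higher, and 0.30. With the GC and length trend removed the EZH2i median of the 5 was 0.18, next to 0.22 for all expressed genes. That of the 4 was then 0.09. EIF1AD, a protein with the fold of eIF1A that is found in the nucleus (chromosome 11, 65764016 to 65769647), stood at 3.20 in vehicle, 2.11 with CDK2i and 3.58 with EZH2i, about 449, 240 and 613 fragments. It was 2.13-fold lower in CDK2i than in vehicle and 2.79-fold lower in CDK2i than in EZH2i. EIF5, which makes eIF2 hydrolyse GTP at the start codon (chromosome 14, 103799881 to 103811362), stood at 4.78, 4.06 and 5.31. It was 2.38-fold higher in EZH2i than in CDK2i, and the vehicle tumor lay between. This difference was below 2-fold with the libraries centred (0.86) or the GC and length trend removed (0.75). For both genes CDK2i was the lowest tumor and EZH2i the highest.

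EIF1, which keeps the scanning complex open, was among the more abundant initiation factors at 140 FPKM in vehicle, 145 with CDK2i and 124 with EZH2i. Its paralog EIF1B was at 21.8, 14.5 and 23.0 FPKM, lowest in CDK2i, and EIF1 exceeded it 6.41-fold, 9.99-fold and 5.40-fold. EIF1AX, the X-linked gene for eIF1A, was at 3.80, 3.99 and 4.53, highest in EZH2i, where it lay 0.74 above vehicle. With the GC and length trend removed this difference was 0.18.

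eIF2 and its exchange factor eIF2B set how much initiator tRNA reaches the ribosome. In eIF2, EIF2S2 was the most abundant subunit at 53.7 FPKM in vehicle, 50.7 with CDK2i and 68.3 with EZH2i, and EIF2S1, which carries the phosphorylated serine of the stress response, the least at 15.2, 17.3 and 24.4. With EIF2S3, EIF2A and EIF2D, the 5 expressed genes had medians of −0.08 in CDK2i and 0.37 in EZH2i. None of the 5 differed 2-fold from vehicle, while 11.3% of all genes passed the thresholds in CDK2i and 13.4% in EZH2i. The CDK2i median was 0.09 with the libraries centred. With the GC and length trend removed the EZH2i median was 0.12, next to 0.22 for all expressed genes. All 5 were higher in EZH2i than in CDK2i, a direction that 66.9% of all expressed genes had.

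The 5 subunits of eIF2B had medians of −0.01 in CDK2i and 0.13 in EZH2i, which became 0.16 and −0.09 with the libraries centred. EIF2B4 (chromosome 2, 27587219 to 27593205), a regulatory subunit, was at 3.28 in vehicle, 2.25 with CDK2i and 3.04 with EZH2i, about 268, 150 and 237 fragments, and was 2.04-fold lower in CDK2i. EIF2B5, the catalytic subunit, was at 4.64, 3.93 and 4.77, also lowest in CDK2i. EIF2B3, the least abundant subunit in vehicle, was at 3.01, 3.05 and 3.67 and was highest in EZH2i. With the GC and length trend removed, EIF2B4 differed from vehicle in CDK2i by −0.88 and EIF1AD by −0.96, both below 2-fold, while EEF1B2 still passed at −1.04 and EIF4A1 at 1.26.

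Some genes carry a factor's symbol without being an initiation or elongation factor. EIF4ENIF1, which carries eIF4E into the nucleus and represses mRNAs, had the largest difference of all expressed members in CDK2i, at 1.58 in vehicle, 0.28 with CDK2i and 1.98 with EZH2i. EEF1E1, a scaffold of the multisynthetase complex, was at 2.27, 1.19 and 2.84. Both were lowest in CDK2i, by 1.30 and 1.08, and both stayed below the expression minimum, with about 184, 85 and 253 fragments for EIF4ENIF1 and 85, 46 and 131 for EEF1E1. Of the exon length of EEF1E1, 18.8% is shared with a read-through gene. Leaving out these with EEF2K and EIF4A3 left each count of members past the thresholds as it was. EIF1AD, a relative of eIF1A rather than the factor itself, was not among them, and without it, an alternative chosen after seeing the data, the counts were 3 in CDK2i, 1 in EZH2i and 2 between the treated tumors.

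The 15 expressed members not yet given with a level lay within 2-fold of vehicle. They were EEF2K, EIF2A, EIF2B1, EIF2B2, EIF2D, EIF2S3, EIF3B, EIF3D, EIF3I, EIF3J, EIF3M, EIF4A3, EIF4B, EIF4E2 and EIF5B. Their differences ran from −0.65 (EIF3D) to 0.10 (EIF3B) in CDK2i and from −0.34 (EIF3D) to 0.54 (EEF2K) in EZH2i. EEF2K is the kinase that stops eEF2, EIF4A3 is a helicase of the exon junction complex and EIF5B joins the subunits. EIF2S3L, which resembles EIF2S3, had about 5 or 6 fragments in each tumor and is given no difference.

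In EZH2i the changes ran with the length and GC content of the transcripts. Across the 48 expressed members the Spearman correlation of the EZH2i difference was −0.33 with GC content and 0.39 with length, and in the CDK2i tumor it was 0.22 and 0.02. Across the 40 members outside the TOP list it was −0.55 and 0.55 in EZH2i. Over 10100 other expressed genes it was −0.58 and 0.49. Genes are not independent replicates and share their libraries, so these values only describe them.

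**Figure D5:**
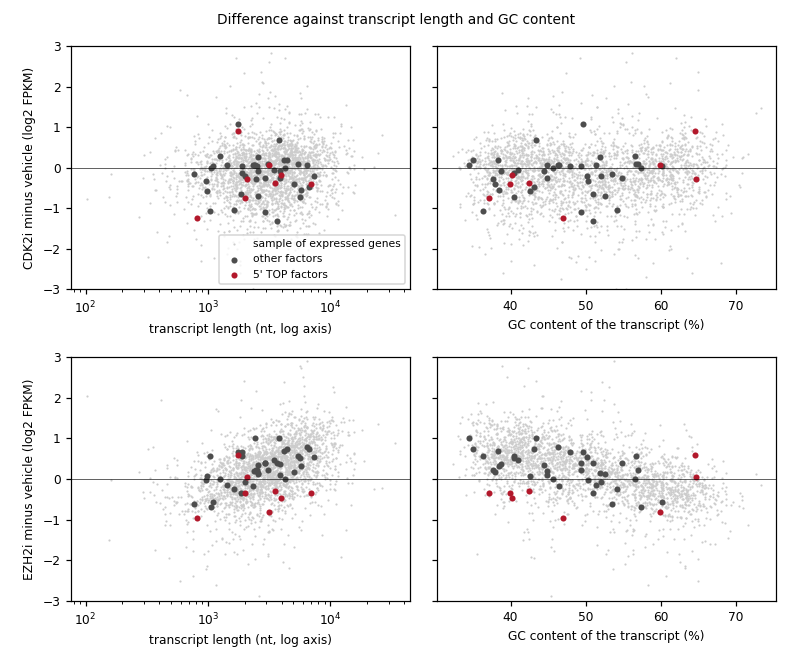
Difference from the vehicle tumor, in log2 FPKM, against transcript length in nt (left, log axis) and GC content in percent (right), for CDK2i (top) and EZH2i (bottom). Red points are the TOP factors, black points the other expressed factors, and gray points a sample of the other expressed genes. In EZH2i the black points climb with length and fall with GC content as the gray points do (Spearman −0.58 with GC over the other genes). There 6 of the 8 red points lie below 0, against 38.5% of all expressed genes.

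With this trend removed by a polynomial fitted over expressed genes without ribosomal protein genes, the TOP factors had medians of −0.31 in CDK2i and −0.61 in EZH2i, the other members 0.04 and 0.20, and ribosomal protein genes −0.73 and −0.72. The TOP factors thus stayed between the others and the ribosomal protein genes, and in EZH2i their distance from the other members went from −0.62 to −0.80 (log2 FPKM). EEF1A1, EEF2, EEF1B2, EIF3E, EIF3F and EIF3H were at −0.62, −0.49, −0.66, −0.59, −0.94 and −0.88 in EZH2i after this step, and EEF1D and EEF1A2 at 0.67 and 1.25. The 6 genes below 0 were the same ones as before it.

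Genes that control or accompany the factors gave the following values. The 19 expressed regulators had medians of 0.22 in CDK2i and 0.35 in EZH2i. Of the 14 that reached the expression minimum, 0 passed in CDK2i as deposited, against 11.3% of all genes. In EZH2i 2 passed as higher, MTOR and PPP1R15B, or 14.3%, against 8.93% of all genes as higher and 13.4% in either direction. As deposited their differences were 1.06 and 1.003, just past 2-fold, and their calls under other scalings are not given here. MTOR, the kinase that acts on TOP mRNAs through LARP1 and on eIF4E through its binding proteins, was at 3.12 in vehicle, 3.69 with CDK2i and 4.17 with EZH2i. PPP1R15B, a subunit of the phosphatase of eIF2α, was at 3.14, 2.32 and 4.15. LARP1, which binds the TOP tract, was at 4.93, 5.32 and 5.50, lowest in vehicle.

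EIF4EBP1, the repressor that holds eIF4E until mTOR phosphorylates it, was at 6.17, 6.50 and 5.98. EIF2AK3, the eIF2α kinase of the endoplasmic reticulum, was at 0.98, 0.23 and 1.93. The mRNA of EIF4EBP1 was thus well above that of EIF4E in each tumor. Levels of mRNA do not show the phosphorylation of either protein.

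Among 12 expressed genes for poly(A) binding, termination, recycling and hypusine synthesis, the medians were 0.16 in CDK2i and 0.06 in EZH2i. ABCE1, which splits the ribosome after termination, and GSPT1, a termination factor, passed as higher in EZH2i as deposited, by 1.19 and 1.17. These were 2 of 11, or 18.2%, against 8.93% of all genes as higher and 13.4% in either direction. In CDK2i 0 of 11 passed, against 11.3%. The calls of ABCE1 and GSPT1 under other scalings are not given here. Of 9 mitochondrial translation factors, with medians of −0.09 and 0.37, 6 reached the expression minimum in CDK2i. Of these MTIF3 passed as lower there (−1.07), or 16.7%, against 8.07% of all genes as lower and 11.3% in either direction. The 20 cytosolic aminoacyl-tRNA synthetases had medians of −0.07 and 0.30. None of the 19 that reached the minimum passed the thresholds against vehicle, next to 11.3% of all genes in CDK2i and 13.4% in EZH2i. Over all expressed genes the medians were −0.11 and 0.19.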

How the data were processed

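Total RNA of 3 SUM-149 xenograft tumors was sequenced. The authors mapped reads to GRCh37 (hg19), with CASAVA and STAR named without versions in the submitters' processing notes, and deposited log2 FPKM per gene symbol; lengths, annotation, strand and mouse reads are not given in the sources used here. A deposited log2 FPKM of −9 stands for a value of 0. From these, differences of log2 FPKM were computed with Python 3.11.15, numpy 2.4.6, pandas 2.3.3 and scipy 1.17.1, and figures drawn with matplotlib 3.10.9. Thresholds (fold above 2, higher value above log2 FPKM 3) follow the study, without its limma test, which needs replicates; 0 columns of values were left unused. Depth was recovered from whole-fragment steps of low values, within 0.03 fragments, and fragments per gene are approximate. Lengths, GC content and overlaps came from GENCODE 44 on GRCh37, with 92.1% of expressed genes and all 54 members matched, and starts from RefSeq. A trend over GC content and log length was taken off with a polynomial of degree 3. Scripts were tested on simulated data. The members, gene lists and thresholds were chosen with earlier results of these data known. Genes were named by rule: the TOP list, members past the thresholds, the 5 largest differences each way per comparison, the paralog pairs, the highest and lowest subunit of each complex, and, of the regulators, those past the thresholds with EIF4EBP1, EIF2AK3, MTOR and LARP1. Other genes named, such as near copies, pseudogenes and genes of the other lists, were chosen after their values were seen. Alternatives were other scalings, pseudocounts of 1 and 0.1 FPKM, trend removal, folds of 1.5 and 3, other expression minimums, other member sets and other TOP lists.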

Additional observations from a re-analysis of the deposited data

How the results depend on the processing

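With 1 library per condition no value has a replicate error, and the labels name no animal or batch. No paired analysis was possible because each group holds 1 library. The median difference of the expressed members changed sign with the libraries centred on their median gene, to 0.0345 in CDK2i, −0.0105 in EZH2i and −0.0045 between EZH2i and CDK2i. With the summed FPKM made equal it changed sign to 0.0146 in CDK2i and was 0.45 in EZH2i. These scalings move every gene of a library alike. The count of members past the thresholds in CDK2i, 4 as reported, was 2 with a pseudocount of 1 FPKM, 2 with the GC and length trend removed, 10 at a fold of 1.5, 0 at a fold of 3 and 1 at a minimum of log2 FPKM 5. In EZH2i it was 1 as reported, 2 with the libraries centred (0 higher and 2 lower), 2 with equal sums, 11 at a fold of 1.5, 0 at a fold of 3, and 3 both without an expression minimum and at a minimum of log2 FPKM 1. Between the treated tumors it was 3 as reported, 5 with equal sums without ribosomal protein and mitochondrial genes, 14 at a fold of 1.5, 0 at a fold of 3, 6 without a minimum and 5 at a minimum of log2 FPKM 1. Of all genes past the thresholds, 217 were higher and 535 lower in CDK2i as deposited, 349 and 370 with the libraries centred, 310 and 354 with equal sums, and 154 and 724 with equal sums without ribosomal protein and mitochondrial genes. In EZH2i 662 were higher and 328 lower as deposited, 299 and 542 centred, and 1334 and 170 with equal sums. Between the treated tumors 1297 were higher and 483 lower as deposited, and 522 and 1046 centred. With equal sums without ribosomal protein and mitochondrial genes they were 1814 and 343. At a fold of 1.5, 699 of 6632 genes were higher and 1248 lower in CDK2i. These counts were 1816 and 894 of 7414 in EZH2i, and 2471 and 1059 of 7394 between the treated tumors. At a fold of 3 they were 90 and 160, 106 and 80, and 431 and 168. At a minimum of log2 FPKM 5, 105 were higher and 91 lower in CDK2i. At a minimum of log2 FPKM 1, 1577 were higher and 655 lower in EZH2i, and 3198 and 835 between the treated tumors. Without a minimum these counts were 6041 and 4755, and 9051 and 5195. The TOP median minus that of the other members kept its sign under each alternative. With the RefSeq pyrimidine start in place of the list, an alternative chosen after seeing the data, it was −0.35 in EZH2i (−0.62 as reported) and −0.19 between the treated tumors (−0.41 as reported), where the wider TOP list gave −0.18. Single members that moved with the trend removed, EEF1A2, EIF3G and EIF6 in EZH2i, have these values beside their results, and EEF1D between the treated tumors was 1.06 (0.33 as reported). EIF5AL1 between the treated tumors was −0.54 with a pseudocount of 1 FPKM. With the trend removed, the ratio of EEF1A1 to EEF1A2 differed by −1.87 in EZH2i against vehicle (−0.88 as reported) and by −0.73 between the treated tumors (0.40 as reported), and the ratio of EIF5A to EIF5A2 by −0.21 in EZH2i (−1.37 as reported). The cause of these shifts was not tested.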
